A study of Mus musculus with 108 samples.

Results

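The maturation of the wild-type (WT) mouse cerebral cortex between postnatal day 7 (P7) and P35 was described from 11 of the 108 RNA-seq libraries of the series, 6 from WT mice at P7 and 5 from WT mice at P35. Libraries were chosen by the genotype, period and region in their titles. The sixth P35 mouse titled WT was left out because the study's supplementary sample table lists it as a mutant; its Cul3 level in cortex, 184.4 CPM (the counts-per-million unit, scaled to library size), lay within the WT range. Beside cortex the study sequenced hippocampus and cerebellum, in 6 mice of each genotype, WT or Cul3+/-, at the embryonic stage E17.5, at P7 and in the adult period. P35 is the age that the titles give. The paper states the adult period as a range of weeks, so that the exact age of each of these mice is not known. Cul3 is the scaffold of a cullin-RING ubiquitin ligase, and the Cul3+/- mice carry a germline 1-base frameshift insertion made by CRISPR-Cas9 in a line that descends from a single founder. The WT mice used here carry no engineered allele and share the strain background that the labels spell C56Bl/6N. Each of the 11 cortex libraries came from a different mouse and held the ribodepleted, strand-specific total RNA of cortex. The labels give neither sex nor litter nor day of collection, so that age and whatever else differed between the collections cannot be told apart.

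In the first postnatal week most cortical neurons of the mouse have reached their layers but still extend axons and dendrites, and astrocytes and oligodendrocyte precursors are dividing. Over the following weeks the eyes open, oligodendrocytes wrap axons in myelin, synapses are formed and pruned, and receptors and ion channels exchange juvenile for adult subunits. By P35 the sensory critical periods are largely over, and fast-spiking interneurons with perineuronal nets are in place. RNA of bulk tissue was measured, so that a change in the number of cells of a type and a change in RNA per cell cannot be told apart.

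The libraries held 28516499 to 44411282 expected counts. Log2 CPM correlated across genes at r = 0.981 to 0.993 within an age and at 0.923 to 0.9405 between ages, and the first principal component, with 74.1% of the variance, separated the ages. P7 replicate 4 stood apart from the other P7 libraries. Its mitochondrial share was 2.67% against 1.49% to 1.90%, its 20 highest genes took 11.3% of counts against 13.6% to 14.6%, and its summed ribosomal protein level was 10100.0 CPM against 13580.0 to 15050.0 CPM. Some of the results that it moves are therefore also given without it. Mitochondrial shares were 4.93% to 6.10% at P35, and genes that do not code for protein took 9.80% to 12.5% of counts at P7 and 13.8% to 18.4% at P35. Xist, which is transcribed in females, was at 148 to 734 CPM in 3 of the 6 P7 and 3 of the 5 P35 libraries and at most 0.195 CPM in the others, so that both ages held both sexes. Of 10 markers of cortical glutamatergic neurons, including the cortical factors Emx1 and Tbr1, all were detected and their summed level was 1270.0 to 1895 CPM at P7 and 2346 to 2910.0 CPM at P35, where 6 members were higher and 4 lower than at P7 (median log2 fold change 0.29). Cul3 was at 163 to 187 CPM at P7 and 153 to 184 CPM at P35, and the ages were not told apart by the test (exact 2-sided permutation test of log2 CPM, p = 0.812, the smallest p possible being 0.00433), while the Cul3+/- cortex libraries were at 87.35 to 102 CPM.

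Most genes measured differed between the ages. Of 18022 genes tested with edgeR's quasi-likelihood test, 6376 (35.4%) were higher and 6663 (37%) lower at P35 at a Benjamini-Hochberg adjusted p of 0.1 or less, the threshold used throughout for "rose" and "fell". Beyond a 2-fold change, tested as such, 1353 (7.51%) were higher and 1372 (7.61%) lower. For 9040 genes (50.2%) the levels of the 6 P7 and 5 P35 libraries did not overlap. The median log2 fold change over all genes was -0.03. Scaling by total counts instead of TMM factors shifted the median of all genes by -0.15 on the log2 scale and turned the split into 5014 higher and 8245 lower genes, and changes are therefore best read against the median. With this background, a gene list is described by how many of its members rose and fell. Such counts are read beside the 35.4% and 37% of all genes tested, also where these shares are not repeated. The lists and the members named were chosen with earlier results of these data known. The plot of list members by change shows myelin at one end and immature neuron and cell cycle genes at the other.

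**Figure D1:**
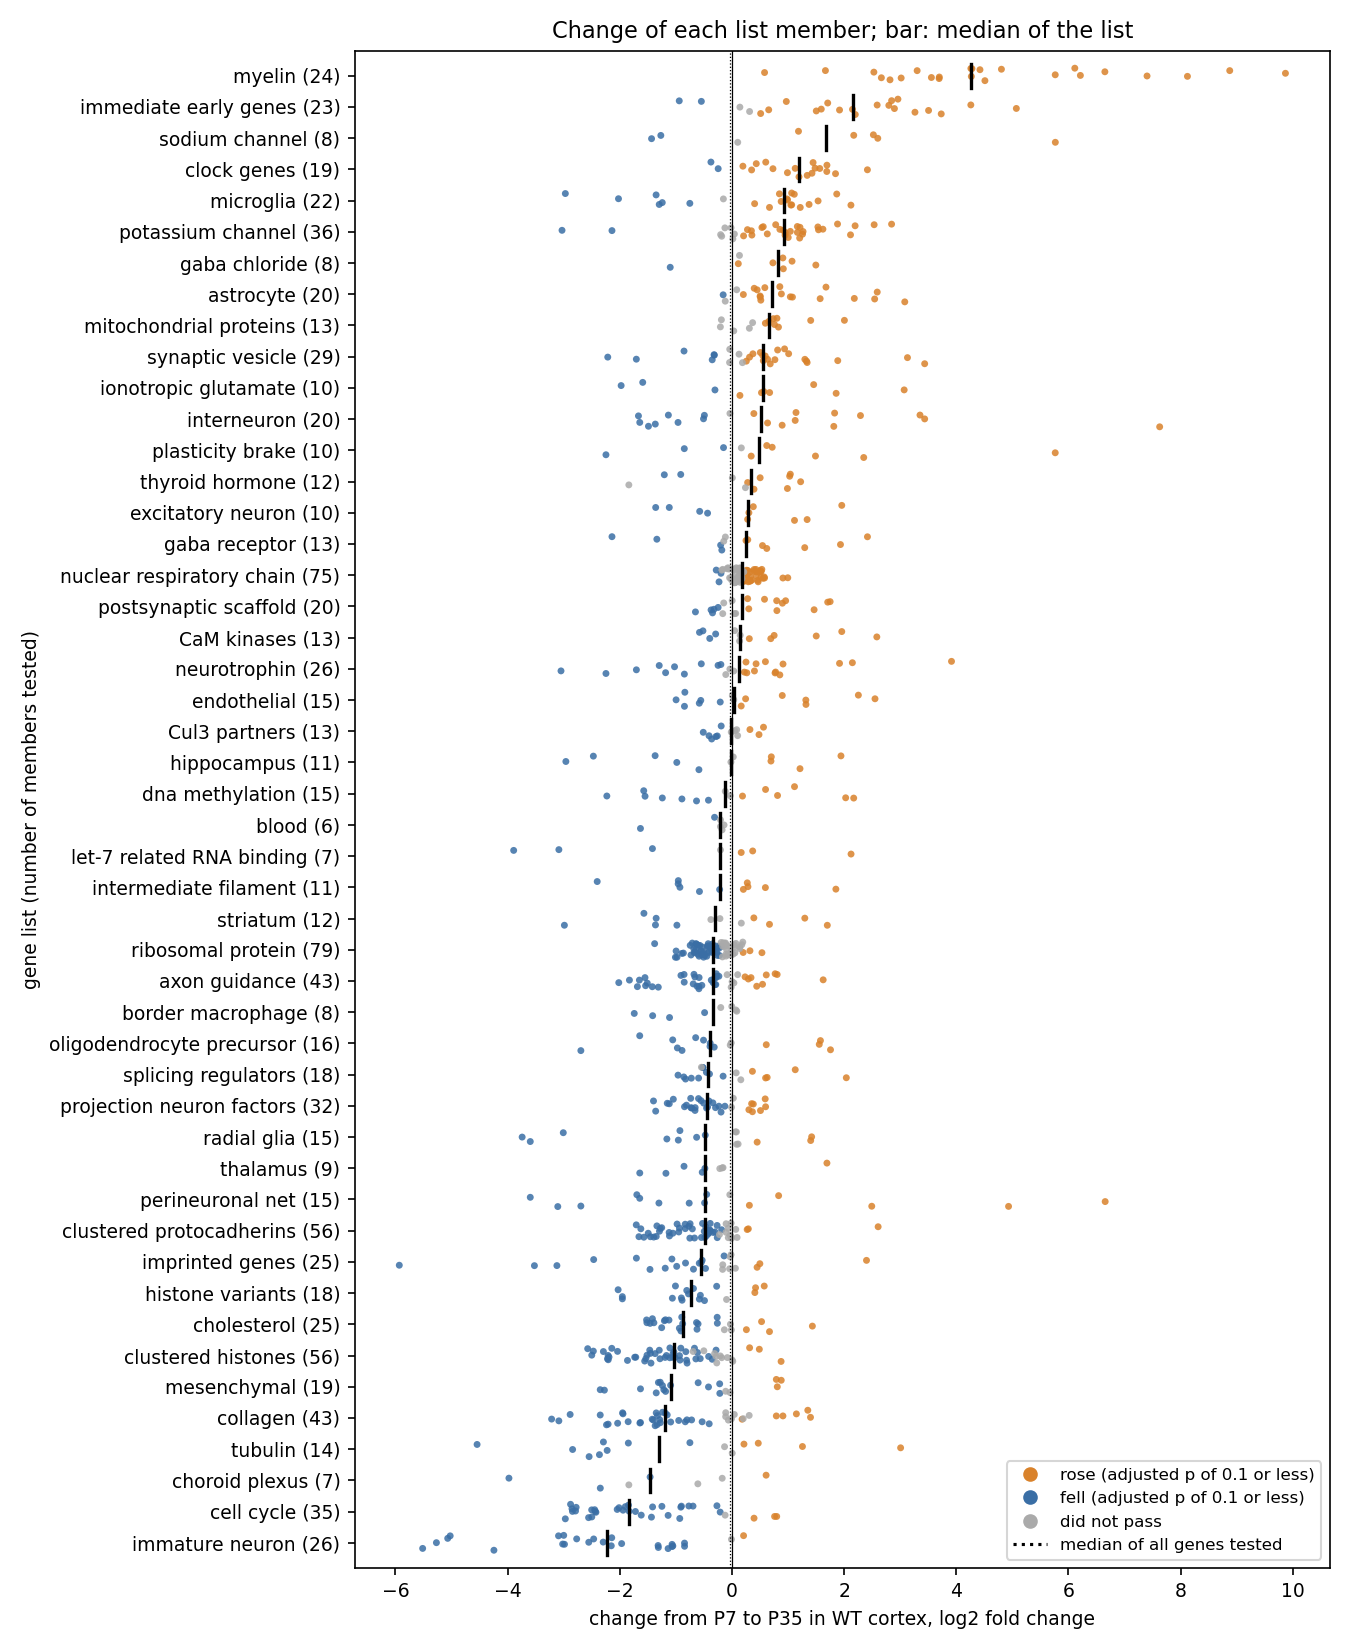
Log2 fold change from P7 to P35 in WT cortex (horizontal axis) of every tested member of 48 gene lists (vertical axis, with the number tested), 1 point per gene. Points are orange where the gene rose and blue where it fell at an adjusted p of 0.1 or less, grey otherwise; the bar is the list's median, and medians run from 4.27 for myelin to -2.22 for immature neuron genes.

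Myelin genes had the highest median change of the 48 lists. All 24 members tested rose, 23 of them beyond 2-fold, with a median log2 fold change of 4.27 and no overlap between the ages in any member. Mobp, a basic protein of compact myelin, was at 0.331 to 2.31 CPM (median 1.01) at P7 and at 554, 575, 525, 461 and 593 CPM at P35. It rose 469.7-fold (log2 fold change 8.88, SE 0.32, adjusted p = 2.0e-11), with every P35 library far above every P7 library. Mog, a glycoprotein of the outermost myelin layer, was at 0.11 to 0.39 CPM (median 0.199) at P7 and at 62.9, 62.1, 66.9, 50.6 and 64.2 CPM at P35 (log2 fold change 8.12, SE 0.16, adjusted p = 1.1e-13). P35 replicate 4 had the lowest P35 level of both genes and of the list as a whole, whose sum was 4679 CPM there against 5608 to 5936 CPM in the other P35 libraries. Mbp, which compacts the myelin membrane, had already been at 64.9 to 85.8 CPM (median 75.5) at P7 and rose 12.9-fold to 898, 1009, 1035, 881 and 1059 CPM. Mal, Ermn and Mag, which encode a myelin proteolipid, a cytoskeletal protein of myelin sheaths and a glycoprotein of the inner myelin layer, rose 169-fold, 100.4-fold and 54.3-fold. Tmem88b rose 37.6-fold. Opalin, a late oligodendrocyte gene, was at 0 CPM in 4 P7 libraries and at 0.055 and 0.052 CPM in P7 replicates 2 and 4, against 21.7, 19.5, 22.2, 14.4 and 19.5 CPM at P35, and no fold is given because most P7 libraries held no count.

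Precursor genes of the same lineage went in both directions. Of the oligodendrocyte precursor list, 4 of 16 tested members rose and 10 fell, with a median log2 fold change of -0.39. Bcas1, a marker of oligodendrocytes that have just begun to differentiate, was at 13.6 to 23.9 CPM (median 18.7) at P7 and at 66.3, 64.9, 66.7, 59.2 and 57.3 CPM at P35 (log2 fold change 1.76, SE 0.11, adjusted p = 5.5e-09). Vcan, a chondroitin sulphate proteoglycan of precursors and of the juvenile matrix, was at 102 to 167 CPM (median 142) at P7 and at 21.9, 21.7, 22.2, 19.5 and 19 CPM at P35 (log2 fold change -2.69, SE 0.13, adjusted p = 1.9e-10). The ages did not overlap in either gene, which moved in opposite directions.

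**Figure D2:**
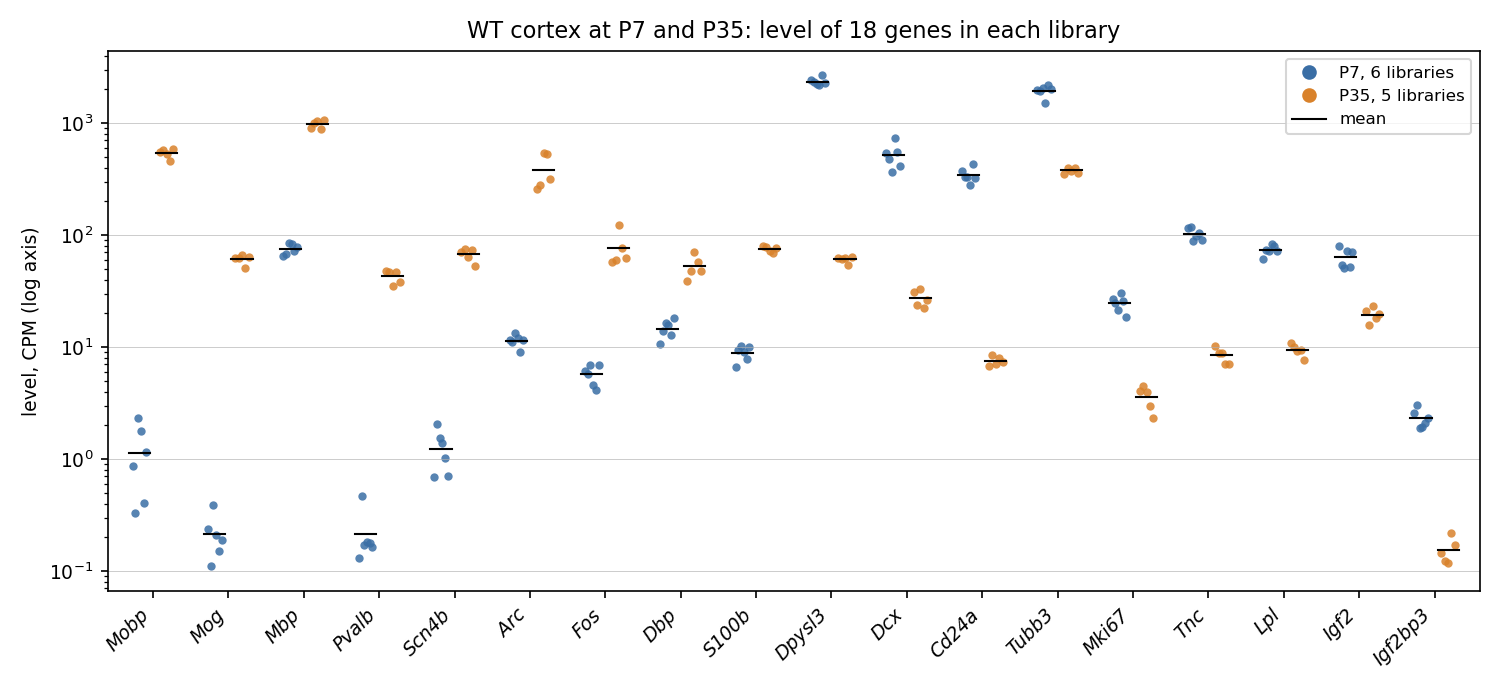
Level in CPM (vertical log axis) of 18 genes (horizontal axis) in each of the 6 P7 libraries (blue) and 5 P35 libraries (orange) of WT cortex; points are libraries and bars are means. Myelin, Pvalb, immediate early and clock genes stand higher at P35 without overlap for Mobp, Pvalb, Arc and Dbp. Neurite growth and cell cycle genes stand lower, among them Dpysl3 (38.6-fold).

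Genes of newborn neurons and of neurite growth fell together. Among immature neuron genes 1 of 26 tested members rose and 24 fell, with a median log2 fold change of -2.22, 19 of the falls being beyond 2-fold. Dpysl3, a collapsin response mediator protein that acts on the growth cone cytoskeleton, was at 2169 to 2673 CPM (median 2294) at P7 and at 62.6, 60.6, 62.9, 54.4 and 63.4 CPM at P35, a 38.6-fold fall (log2 fold change -5.27, SE 0.09, adjusted p = 2.1e-14). Dcx, the microtubule-binding doublecortin of migrating neurons, was at 364 to 743 CPM (median 512) at P7 and at 30.7, 23.9, 33, 22.2 and 26.5 CPM at P35 (log2 fold change -4.24, SE 0.19, adjusted p = 1.1e-10). Cd24a, a small surface glycoprotein of young neurons, was at 280.2 to 434 CPM (median 329) at P7 and at 6.8, 8.44, 7.11, 7.91 and 7.32 CPM at P35 (log2 fold change -5.52, SE 0.12, adjusted p = 3.1e-13). In each of these the lowest P7 library was above the highest P35 library by a wide margin. Dpysl5, a relative of Dpysl3, fell 32.5-fold. Kif5c, a kinesin heavy chain of neurons, was the only list member to rise, at 1084 to 1261 CPM and 1253 to 1479 CPM with overlapping ages (log2 fold change 0.21, adjusted p = 0.014, or 0.06 and no longer past the test when scaled by total counts).

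The largest falls among well-expressed genes outside that list were mixed in function. Trim67, a brain-enriched TRIM ubiquitin ligase, was at 86.9 to 274 CPM (median 127) at P7 and at 1.72, 2.32, 2.4, 1.66 and 1.46 CPM at P35 (log2 fold change -6.22, SE 0.32, adjusted p = 5.4e-10). St8sia2, the enzyme that adds polysialic acid to the neural cell adhesion molecule, was at 35 to 125 CPM (median 47.2) at P7 and at 1.16, 1.93, 1.35, 2.13 and 1.54 CPM at P35 (log2 fold change -5.15, SE 0.37, adjusted p = 1.5e-08). The highest P7 value of both came from P7 replicate 4, at 274 and 125 CPM, and the ages did not overlap. Aplnr, the apelin receptor, fell 16.4-fold, Slc29a4, a monoamine transporter of the plasma membrane, fell 21.3-fold, and the imprinted gene Mkrn3 fell 15.9-fold.

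Most tubulin genes fell. Among tubulins 4 of 14 tested members rose and 8 fell, with a median log2 fold change of -1.30, and their sum was 14510.0 to 21410.0 CPM at P7 and 4347 to 4838 CPM at P35. Tubb3, the neuronal beta-III isotype, was at 1520.0 to 2193 CPM (median 1994) at P7 and at 354, 400.1, 374, 400.2 and 361 CPM at P35 (log2 fold change -2.36, SE 0.09, adjusted p = 3.6e-11). Tubb2b fell 23.3-fold, with 1717 to 2821 CPM at P7 and 95.7 to 113 CPM at P35, and Tuba8 rose 8.04-fold, with 0.468 to 1.26 CPM at P7 and 5.64 to 8.51 CPM at P35. Tubb4a, an isotype of oligodendrocytes and adult neurons, overlapped between the ages through P7 replicate 4, which had 276 CPM against 110.4 to 136 CPM in the other P7 libraries and 186 to 254 CPM at P35 (log2 fold change 0.47, adjusted p = 0.053). Its rise no longer passed the test when P7 replicate 1, 2 or 3 or P35 replicate 3 was left out (0.39 to 0.42), or when scaled by total counts (0.32), and was 0.73 without P7 replicate 4. Per kilobase of exon, the level of Tubb4a was 0.0481 to 0.152 times that of Tubb3 at P7 and 0.406 to 0.57 times at P35, without overlap. Tubulin genes are close in sequence, and reads shared between them were divided by estimation. Among intermediate filaments 5 of 11 tested members rose (45.5%) and 6 fell (54.5%), with a median log2 fold change of -0.22. Of all genes tested, 35.4% rose and 37% fell. Nefh, the heavy neurofilament chain of large axons, was at 12.7 to 19.1 CPM (median 16.3) at P7 and at 54.7, 63, 52.9, 61.7 and 54 CPM at P35 (log2 fold change 1.85, SE 0.10, adjusted p = 8.3e-10), whereas Nes, the filament of neural progenitors, fell 1.94-fold and Lmnb1, the lamin of dividing nuclei, fell 5.29-fold.

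Cell division genes fell. Among cell cycle genes 3 of 35 tested members rose and 31 fell, with a median log2 fold change of -1.83, and 31 did not overlap between the ages. Mki67, a protein of dividing nuclei, was at 18.4 to 30.3 CPM (median 25.3) at P7 and at 4.07, 4.5, 3.95, 2.96 and 2.32 CPM at P35 (log2 fold change -2.78, SE 0.17, adjusted p = 3.0e-09). Ube2c, a ubiquitin-conjugating enzyme of mitosis, fell 7.84-fold. Ccne2, a cyclin of the G1 to S transition, rose 1.74-fold, with 3.87 to 5.83 CPM at P7 and 6.41 to 9.42 CPM at P35. Of the replication-dependent histone genes, 56 of 61 were tested, 43 fell and 3 rose, with a median of -1.04. Hist1h2an fell 5.95-fold, and Hist2h2be rose, with 2.47 to 3.37 CPM at P7 and 4.8 to 6.01 CPM at P35. These genes are nearly identical copies, so that single members are uncertain. Among linker histones and histone variants 3 of 18 tested members rose and 14 fell, with a median log2 fold change of -0.73, from H2afy2, which fell 4.08-fold, to H2afv, which rose 1.49-fold. Of radial glia and neurogenic progenitor genes, 15 of 16 were tested, 3 rose and 8 fell, with a median of -0.48. Without P7 replicate 4, 4 rose and 8 fell, with a median of -0.34. Tnc, an extracellular glycoprotein of radial glia, fell 12.1-fold, with 88.9 to 117 CPM at P7 and 7 to 10.3 CPM at P35, and Hopx rose 2.68-fold. Eomes, a factor of intermediate progenitors, was at 0.272 to 1.06 CPM in 5 P7 libraries and 15.4 CPM in P7 replicate 1, against 0.057 to 0.367 CPM at P35. Its log2 fold change was -3.74 (SE 1.17, adjusted p = 0.011) and -1.49 without that library.

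Glutamate receptor subunits changed in composition. Of NMDA and AMPA receptor subunits, 10 of 11 were tested, 7 rose and 3 fell, with a median of 0.55. Grin2a, the NMDA receptor subunit that enters synapses as they mature, was at 129 to 231 CPM (median 166) at P7 and at 625, 636, 592, 623 and 542 CPM at P35 (log2 fold change 1.86, SE 0.13, adjusted p = 9.3e-09). Grin2b, the subunit that dominates in the newborn forebrain, was at 839 to 1527 CPM (median 982) at P7 and at 865, 862, 982, 812 and 769 CPM at P35 (log2 fold change -0.30, SE 0.13, adjusted p = 0.05). Grin2a rose in all 5 P35 libraries over all P7 libraries, whereas Grin2b overlapped, its highest P7 value being that of P7 replicate 4, and its fall no longer passed the test without P35 replicate 4 or 6 (-0.28 and -0.26) and was -0.17 without P7 replicate 4. Per kilobase of exon, the ratio of Grin2a to Grin2b was 0.183 to 0.289 at P7 (median 0.208) and 0.835 to 1.06 at P35, a comparison chosen after the values were seen and not tested. Grin2c rose 8.4-fold, with 1.74 to 4.75 CPM at P7 and 30 to 34.9 CPM at P35, and Grin2d, which is found in interneurons, fell 3.93-fold, with 15.4 to 29.4 CPM at P7 and 4.1 to 6.17 CPM at P35. 

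Genes of the GABA system went in both directions. Of GABA-A receptor subunits, 13 of 15 were tested. Beside 35.4% and 37% of all genes tested, 7 rose (53.8%) and 4 fell (30.8%), with a median of 0.25. When scaled by total counts, 5 rose and 6 fell with a median of 0.10, and without P7 replicate 1, 7 rose and 6 fell. Gabra2, an alpha subunit that is abundant early, was at 129 to 164 CPM (median 147) and 141, 139.9, 122, 136 and 133 CPM and did not pass the test (log2 fold change -0.12, adjusted p = 0.13), although it passed without P7 replicate 1 (-0.14) or 4 (-0.15), with upper-quartile scaling (-0.14) and when scaled by total counts (-0.26). Gabrd, the delta subunit of extrasynaptic receptors, rose 5.34-fold, and Gabrq, the theta subunit, fell 4.41-fold to under 1 CPM. Among genes of GABA synthesis, transport and chloride balance 6 of 8 tested members rose and 1 fell, with a median log2 fold change of 0.82. Gad1, which makes GABA, rose 2.82-fold, and the GABA transporter Slc6a11 fell 2.14-fold. Slc12a5, the KCC2 cotransporter that exports chloride, was at 224 to 285 CPM (median 275) at P7 and at 512, 567, 590.3, 596 and 519 CPM at P35 (log2 fold change 1.07, SE 0.07, adjusted p = 1.2e-08). Slc12a2, the NKCC1 cotransporter that imports chloride, was at 54.2 to 61.7 CPM (median 57.7) at P7 and at 119, 110.2, 115, 101 and 99 CPM at P35 (log2 fold change 0.91, SE 0.06, adjusted p = 7.0e-09). Both rose without overlap, and their per-kilobase ratio overlapped between the ages, at 5.33 to 7.70 and 6.30 to 8.62.

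**Figure D3:**
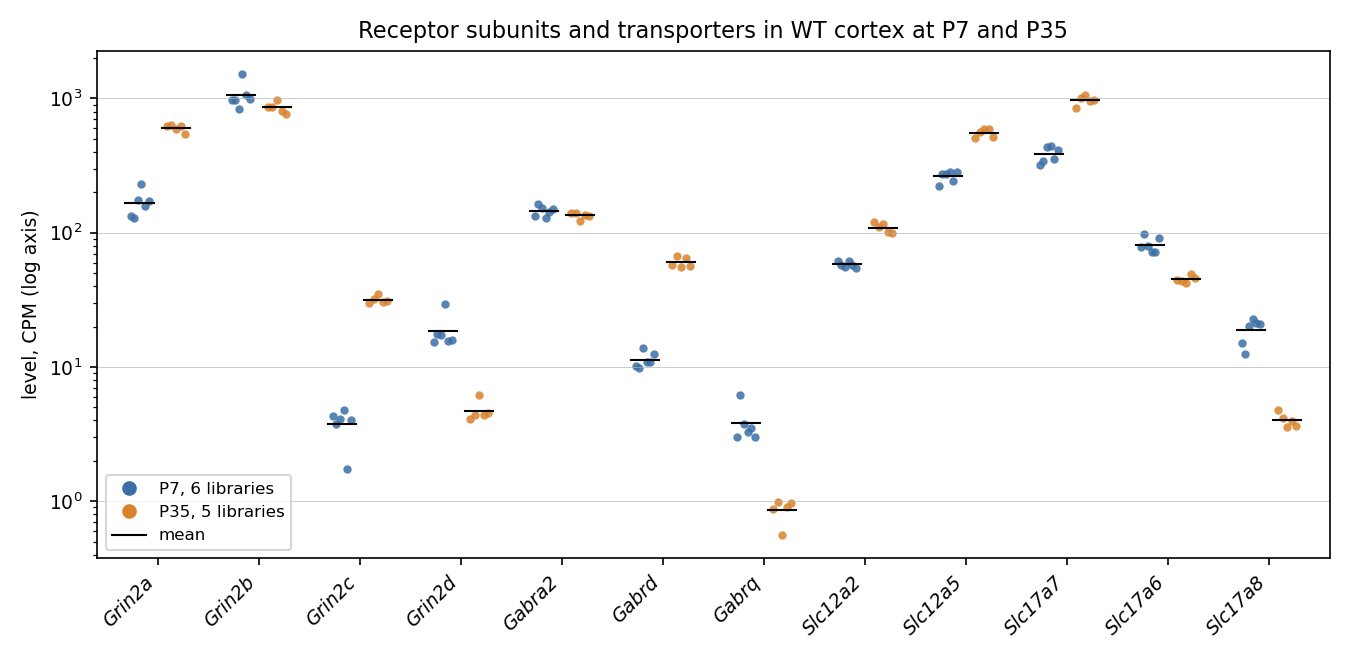
Level in CPM (vertical log axis) of NMDA and GABA-A receptor subunits, chloride cotransporters and vesicular glutamate transporters (horizontal axis) in each of the 6 P7 (blue) and 5 P35 (orange) libraries of WT cortex; points are libraries and bars are means. Grin2a, Grin2c and Gabrd stand higher at P35 without overlap, Grin2b and Gabra2 overlap, and Grin2d, Gabrq and Slc17a8 stand lower.

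Ion channels mostly rose. Of 9 sodium channel subunits, 5 of 8 tested members rose and 2 fell, with a median log2 fold change of 1.68. Scn4b, a beta subunit of fast-firing neurons, was at 0.684 to 2.04 CPM (median 1.21) at P7 and at 70.1, 75.6, 63.4, 73.8 and 52.5 CPM at P35 (log2 fold change 5.77, SE 0.22, adjusted p = 2.5e-11). The juvenile beta subunit Scn3b fell 2.7-fold, without overlap. Of potassium and HCN channel genes 28 of 36 tested members rose and 2 fell, with a median log2 fold change of 0.93. Kcna1, a delayed rectifier subunit placed beside the nodes of myelinated axons, rose 5.8-fold, with 12.8 to 19.3 CPM at P7 and 86.7 to 98 CPM at P35, and Kcnab3, an auxiliary subunit of such channels, rose 7.19-fold. Hcn4, a pacemaker channel subunit, was at 32.8 to 42 CPM (median 37.1) at P7 and at 3.93, 4.4, 4.97, 4.84 and 4.61 CPM at P35 (log2 fold change -3.03, SE 0.09, adjusted p = 2.9e-12), the largest fall of the list.

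Synaptic vesicle genes rose more often than they fell. Among synaptic vesicle genes 19 of 29 tested members rose and 6 fell, with a median log2 fold change of 0.55. Syt2, the calcium sensor of fast-spiking interneuron terminals, was at 4.08 to 6.67 CPM (median 6.52) at P7 and at 63.6, 63.8, 58.5, 74.2 and 53.7 CPM at P35 (log2 fold change 3.44, SE 0.14, adjusted p = 5.2e-11). Slc17a7, the vesicular glutamate transporter of adult cortical neurons, rose 2.53-fold, Slc17a6, used by thalamic and young cortical neurons, fell 1.81-fold, and Slc17a8 fell 4.64-fold. The per-kilobase ratio of Slc17a7 to Slc17a6 was 3.47 to 6.11 at P7 and 19.2 to 25.2 at P35. Of postsynaptic scaffold genes 10 of 20 tested members rose (50%) and 5 fell (25%), against 35.4% and 37% of all genes tested. Their median log2 fold change was 0.17. The median was 0.36 without P7 replicate 4, when 11 rose and 3 fell, 0.11 without P7 replicate 1, and 0.02 when scaled by total counts, when 7 rose and 7 fell. Dlg1, which encodes SAP97, rose 3.36-fold, and Homer3 fell, with 7.03 to 8.93 CPM at P7 and 4.22 to 5.71 CPM at P35. Dlg4, which encodes PSD-95, was at 310.3 to 436 CPM (median 379) at P7 and at 342, 380.2, 388, 364 and 367 CPM at P35, with overlapping ages and a log2 fold change of 0.00 (adjusted p = 0.97). Among CaM kinase genes 6 of 13 tested members rose (46.2%) and 4 fell (30.8%), against 35.4% and 37% of all genes tested. Their median log2 fold change was 0.15, and 0.28 without P7 replicate 2 or 0.25 without P35 replicate 3, and 0.0058 when scaled by total counts. Camk2a, the alpha subunit of the main kinase of the postsynaptic density, was at 138 to 191 CPM in 5 P7 libraries and 390.3 CPM in P7 replicate 4, against 723, 838, 889, 679.7 and 806 CPM at P35 (log2 fold change 1.96, SE 0.22, adjusted p = 2.3e-06). Its endogenous inhibitors moved apart, Camk2n1 rising 5.99-fold and Camk2n2 falling, with 42.2 to 50.1 CPM at P7 and 27 to 36.6 CPM at P35.

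Interneuron genes included one of the largest rises. Of 21 interneuron genes, 20 were tested, 11 rose (55%) and 8 fell (40%), against 35.4% and 37% of all genes tested. Their median was 0.51, which was 0.43 without P7 replicate 1 and 0.66 without P7 replicate 2. Pvalb, the calcium buffer of fast-spiking cells, was at 0.132 to 0.469 CPM (median 0.174) at P7 and at 47.3, 46.9, 35.2, 46.4 and 38.2 CPM at P35, a 198-fold rise (log2 fold change 7.63, SE 0.19, adjusted p = 1.2e-12). The highest P7 level, 0.469 CPM in P7 replicate 2, was far below the lowest P35 level. Sst, the peptide of dendrite-targeting interneurons, rose 1.55-fold, with 44.8 to 82.7 CPM at P7 and 87 to 107 CPM at P35, and Reln, secreted by Cajal-Retzius cells early and by interneurons later, fell 3.18-fold. Perineuronal net and matrix genes split, as 5 of 15 tested members rose and 9 fell, with a median log2 fold change of -0.49. Hapln4, a link protein of nets on fast-spiking neurons, was at 0.421 to 1.05 CPM (median 0.464) at P7 and at 49.8, 60.4, 61.9, 58.7 and 51.8 CPM at P35 (log2 fold change 6.65, SE 0.17, adjusted p = 1.2e-12). Acan, the proteoglycan that gives nets their bulk, was at 4.46 to 7.5 CPM (median 5.1) at P7 and at 3.75, 4.79, 3.16, 4.48 and 3.75 CPM at P35, with overlap, and fell in the test (log2 fold change -0.45, adjusted p = 0.012). Of 11 genes of the Nogo, PirB and Lynx systems, which limit plasticity, 10 were tested, 6 rose and 3 fell, with a median of 0.48, from Mag above to Ngfr, the p75 neurotrophin receptor, which fell 4.75-fold.

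Other glia changed in level. Of astrocyte genes 17 of 20 tested members rose and 1 fell, with a median log2 fold change of 0.72. S100b, a calcium-binding protein of astrocytes and oligodendrocytes, was at 6.66 to 10.2 CPM (median 9.2) at P7 and at 79.2, 78.4, 71.8, 69.1 and 75.9 CPM at P35 (log2 fold change 3.08, SE 0.10, adjusted p = 7.2e-12). Aqp4, the water channel of astrocyte endfeet, was at 136 to 153 CPM (median 144) at P7 and at 139, 134, 142, 118 and 117 CPM at P35, with overlap (log2 fold change -0.16, adjusted p = 0.04), and its fall no longer passed without P35 replicate 4 or 6 (both -0.12). Of microglia genes 15 of 22 tested members rose and 6 fell, with a median log2 fold change of 0.93. P2ry12, a purinergic receptor of surveying microglia, rose 2.9-fold, with 13.1 to 16.7 CPM at P7 and 36.6 to 46.4 CPM at P35, and the lysosomal protease Ctss rose 4.35-fold. Lpl, a lipase that marks developmental microglia but is also made by neurons, fell 7.84-fold, with 61.1 to 83.4 CPM at P7 and 7.67 to 10.8 CPM at P35. Of the 8 border-associated macrophage genes, 0 rose and 4 fell, with a median of -0.34, Folr2 falling 3.35-fold from under 1 CPM.

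Endothelial genes changed in both directions, and fibroblast and collagen genes mostly fell. Of endothelial genes 7 of 15 tested members rose and 6 fell, with a median log2 fold change of 0.03, shares of 46.7% and 40% against 35.4% and 37% of all genes tested. When scaled by total counts, 5 rose and 7 fell, with a median of -0.11. Slco1a4, an organic anion transporter of the blood-brain barrier, was at 8.24 to 11.8 CPM (median 9.34) at P7 and at 65.4, 53.3, 62.5, 45 and 56.6 CPM at P35 (log2 fold change 2.55, SE 0.11, adjusted p = 1.2e-10). Kdr, the main receptor for vascular endothelial growth factor, fell 1.99-fold. Among fibroblast, mural and meningeal genes 3 of 19 tested members rose and 14 fell, with a median log2 fold change of -1.09, and of 44 collagen genes, 43 were tested, 6 rose and 30 fell, with a median of -1.19. Col3a1, a fibrillar collagen, fell 5.09-fold, with 38.7 to 71.5 CPM at P7 and 7.9 to 12.4 CPM at P35, Col4a4 fell 9.29-fold, and Col25a1, a transmembrane collagen of neurons, rose 2.64-fold. Tagln, of smooth muscle, rose, with 1.01 to 2.01 CPM at P7 and 2 to 3.54 CPM at P35 with overlapping ages.

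Markers of blood and neighbouring tissue were summed per library. The sums of choroid plexus, blood, striatal and thalamic genes overlapped between the ages. That of hippocampal genes was 321 to 344 CPM in 5 P7 libraries, 525 CPM in P7 replicate 4 and 256 to 278 CPM at P35, without overlap. The summed level of choroid plexus genes, of which 7 of 10 were tested, was 6.72 to 8.17 CPM in 5 P7 libraries, 39.1 CPM in P7 replicate 5 and 5.18 to 8.52 CPM at P35; 1 member, Kcnj13, rose (log2 fold change 0.61, no longer past the test at 0.49 to 0.53 without P7 replicate 3 or P35 replicate 3 or 4), 3 fell, led by Slc4a5, and the median of -1.46 was -0.64 without P7 replicate 5 and -2.10 without P35 replicate 4. Of 10 blood genes, 6 were tested, 0 rose and 2 fell (5 without P7 replicate 4), with a median of -0.2 (-0.10 without P7 replicate 5 and -0.14 without P35 replicate 6) and sums of 198 to 356 CPM at P7 and 216 to 286 CPM at P35. Slc4a1 of the red cell membrane fell 3.1-fold. Among striatal neuron genes 4 of 12 tested members rose (33.3%) and 5 fell (41.7%), against 35.4% and 37% of all genes tested. Their median log2 fold change was -0.29, which was -0.08 without P7 replicate 2, when 5 rose and 5 fell. Their sum was 106 to 128 CPM in 5 P7 libraries, 176 CPM in P7 replicate 2 and 134 to 153 CPM at P35. Ppp1r1b, which encodes DARPP-32, rose 3.25-fold and Syndig1l fell 7.93-fold. Of thalamic genes, 9 of 10 were tested, 1 rose and 5 fell, with a median of -0.48 that was -0.22 without P7 replicate 1. Rora rose 3.23-fold and Calb2 fell 3.13-fold, and both are also expressed in cortical neurons. Among hippocampal genes 4 of 11 tested members rose (36.4%) and 5 fell (45.5%), also near the shares of all genes tested. Their median log2 fold change was -0.02, and C1ql2 rose 3.85-fold. How far tissue of these kinds in the dissection contributed to the changes of other genes was not tested.

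Activity-regulated genes were higher at P35. Among immediate early genes 19 of 23 tested members rose and 2 fell, with a median log2 fold change of 2.15, 16 of the rises being beyond 2-fold. Arc, which encodes a synaptic protein translated near active synapses, was at 9.09 to 13.2 CPM (median 11.6) at P7 and at 259, 281, 541, 526 and 315 CPM at P35 (log2 fold change 5.07, SE 0.21, adjusted p = 6.4e-11). Fos, a transcription factor induced by firing, was at 4.14 to 6.92 CPM (median 5.93) at P7 and at 57.9, 60.4, 123, 76.8 and 62.9 CPM at P35 (log2 fold change 3.73, SE 0.21, adjusted p = 1.1e-09). All P35 libraries exceeded all P7 libraries in both genes, and the P35 libraries themselves differed, Arc being highest in replicates 3 and 4 and Fos in replicate 3. Bdnf, the neurotrophin released by active neurons, rose 3.78-fold, with 8.56 to 13.2 CPM at P7 and 29.8 to 71.3 CPM at P35, with its highest level in P35 replicate 4. Nr4a3, a nuclear receptor of the same class of genes, fell, with 48.3 to 80.9 CPM at P7 and 20.4 to 43.1 CPM at P35 (log2 fold change -0.94, SE 0.19, adjusted p = 6.0e-04). Neither the hour of collection nor the handling of the mice is in the labels, and their part was not tested.

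Clock genes rose as well. The hour of collection is not in the labels, so that age and time of day cannot be told apart for these genes. Among circadian clock and output genes 17 of 19 tested members rose and 2 fell, with a median log2 fold change of 1.19 (1.35 without P7 replicate 4). Dbp, a PAR bZIP factor that is read out by the clock, was at 10.6 to 18.1 CPM (median 14.7) at P7 and at 39.1, 47.4, 70.5, 57.7 and 48.1 CPM at P35 (log2 fold change 1.85, SE 0.15, adjusted p = 7.6e-08). Hlf, its relative, rose 5.33-fold, and Per2, a repressor of the clock, rose 2.18-fold, with 10.2 to 15.6 CPM at P7 and 17.9 to 41.1 CPM at P35. Nfil3, which competes with Dbp for the same sites, was at 10.8 to 15.2 CPM and 9.01 to 12.4 CPM and fell with overlapping ages (log2 fold change -0.37, adjusted p = 0.0081). The promoters of 4 clock genes are shown because their windows hold the letters of the sites that clock factors read, namely the E-box CACGTG of Clock and Arntl and the D-box TTATGNAA of Dbp, Tef and Hlf. Each is the 250 bases before an annotated start of transcription in RefSeq (GRCm38.p6), with the matching letters, searched on both strands, in capitals.
Ciart (chr3:95882229-95882478, minus strand): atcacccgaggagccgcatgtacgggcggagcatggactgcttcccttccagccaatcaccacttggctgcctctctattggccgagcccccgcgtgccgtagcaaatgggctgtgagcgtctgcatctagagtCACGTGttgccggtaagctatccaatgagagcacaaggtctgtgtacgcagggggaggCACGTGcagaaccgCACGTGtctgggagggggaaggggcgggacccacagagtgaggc
Per1 (chr11:69098699-69098948, plus strand): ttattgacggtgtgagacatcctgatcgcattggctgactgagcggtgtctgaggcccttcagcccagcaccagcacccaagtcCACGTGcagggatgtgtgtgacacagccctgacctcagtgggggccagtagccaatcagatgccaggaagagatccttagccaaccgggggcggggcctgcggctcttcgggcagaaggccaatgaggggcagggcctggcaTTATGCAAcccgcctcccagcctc
Per3 (chr4:151044666-151044915, minus strand): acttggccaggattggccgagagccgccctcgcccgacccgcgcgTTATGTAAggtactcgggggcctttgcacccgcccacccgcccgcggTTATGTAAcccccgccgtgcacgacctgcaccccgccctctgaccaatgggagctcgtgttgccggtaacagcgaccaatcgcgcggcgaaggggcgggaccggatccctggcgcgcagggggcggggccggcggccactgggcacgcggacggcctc
Tef (chr15:81811164-81811413, plus strand): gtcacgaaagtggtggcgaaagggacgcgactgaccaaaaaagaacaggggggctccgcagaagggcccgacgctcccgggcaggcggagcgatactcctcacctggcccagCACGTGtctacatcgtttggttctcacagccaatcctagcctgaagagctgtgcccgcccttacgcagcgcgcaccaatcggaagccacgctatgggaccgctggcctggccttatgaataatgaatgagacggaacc

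These 4 genes were chosen after their values were seen. Ciart, a repressor of the clock, was at 2.36 to 5.8 CPM (median 3.34) at P7 and at 7.91, 8.88, 16.7, 7.76 and 7.07 CPM at P35 (log2 fold change 1.45, SE 0.25, adjusted p = 1.2e-04), with its highest level in P35 replicate 3. Per3 was at 10.9 to 18 CPM (median 13.2) at P7 and at 35.4, 34.8, 41.9, 42.5 and 38.1 CPM at P35 (log2 fold change 1.48, SE 0.11, adjusted p = 2.4e-08). Tef was at 109.8 to 136 CPM (median 120.2) at P7 and at 332, 338, 367, 366 and 392 CPM at P35 (log2 fold change 1.57, SE 0.07, adjusted p = 1.0e-10), so that neither overlapped between the ages. Per1, a light- and activity-induced repressor, was at 20.5 to 34.4 CPM and 29.5 to 62.1 CPM with overlap (log2 fold change 0.73, adjusted p = 0.0028). In the counts that follow, a gene held a site when the window of any of its annotated starts held the letters. The other window of Per1 held neither site, and not every clock gene with an E-box is shown. Of the 17 of 19 tested clock genes that matched the promoter table, 5 (29.4%) held the E-box and 2 (11.8%) the D-box, against 6.86% and 3.63% of all 27025 genes in the table and 9.45% and 2.38% of the 12151 matched genes tested. The E-box was likewise held by 5 of the 19 matched cholesterol genes (26.3%) and by 3 of the 18 matched immediate early genes (16.7%). Among the 18 of 23 immediate early genes that matched, 2 (11.1%), Btg2 and Dusp1, named after the search, held the cyclic AMP response element TGACGTCA, against 2.93% of matched genes tested (1.77% of the table), and 1 (5.56%), Egr2, likewise, held the CArG box, against 1.46% (1.62% of the table). A match of letters is a description of the window and not a measured site of binding.

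Genes of cholesterol metabolism mostly fell. Of genes of cholesterol synthesis, uptake and turnover 4 of 25 tested members rose and 18 fell, with a median log2 fold change of -0.88. Mvd, a decarboxylase of the pathway, fell 2.87-fold, whereas Cyp46a1, the neuronal hydroxylase through which the brain disposes of cholesterol, rose 2.7-fold, with 48.1 to 64.6 CPM at P7 and 139.9 to 157 CPM at P35. Hmgcs1, the synthase of an early step of the pathway, was at 949 to 1304 CPM (median 1147) at P7 and at 478, 487, 436, 409 and 359.8 CPM at P35 (log2 fold change -1.39, SE 0.10, adjusted p = 1.0e-08). Its promoter, chosen after its values were seen, is shown because it was the only 1 of 19 matched cholesterol genes (5.26%) with the letters TCACNCCAC of the sterol regulatory element, in capitals, against 1.23% of matched genes tested and 1.22% of the table.
Hmgcs1 (chr13:119690101-119690350, plus strand): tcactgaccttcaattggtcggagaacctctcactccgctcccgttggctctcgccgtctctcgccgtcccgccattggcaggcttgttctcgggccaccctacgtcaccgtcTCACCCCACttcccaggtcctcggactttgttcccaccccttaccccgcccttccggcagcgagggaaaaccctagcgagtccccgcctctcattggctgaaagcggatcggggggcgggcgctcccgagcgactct

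Thyroid hormone genes gave a mixed picture, with 7 of 12 rising (58.3%) and 2 falling (16.7%), at a median of 0.34. Over all genes tested the shares were 35.4% and 37%. Dio2, the deiodinase that makes active hormone in glia, rose 2.34-fold. Respiratory chain genes rose by small steps. Of the nuclear-encoded subunits, 38 of 75 rose and 3 fell, with a median of 0.18 (36 and 9, with a median of 0.10, without P7 replicate 4, and a median of 0.03 when scaled by total counts). Sdha, of complex II, rose 1.99-fold, with 156 to 175 CPM at P7 and 315 to 348 CPM at P35, and Sdhd of the same complex, whose ages overlapped, fell, with 67.3 to 88.1 CPM at P7 and 58.2 to 72.1 CPM at P35. Of the 13 mitochondrially encoded proteins, 8 rose (12 without P7 replicate 4) and 0 fell, with a median of 0.66, mt-Nd3 rising 4.01-fold. Ribosomal protein genes fell by small steps. Of 82, 79 were tested, 3 rose and 52 fell, with a median of -0.33 (66 falls and -0.40 without P7 replicate 4). Rplp0 fell 2.6-fold, with 296 to 439 CPM at P7 and 144 to 155 CPM at P35, and Rps21 rose 1.45-fold. Ribosomal protein genes have many processed copies in the genome that can share their reads.

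Genes of DNA methylation changed in both directions, and imprinted genes mostly fell. Of 16 genes that write, erase or read DNA methylation, 15 were tested, 6 rose (40%) and 7 fell (46.7%), against 35.4% and 37% of all genes tested, with a median of -0.12 that was 0.03 without P7 replicate 4. Dnmt3a, the methyltransferase that marks neuronal genomes after birth, was at 346 to 433 CPM (median 369) at P7 and at 129, 127, 132, 131 and 122 CPM at P35 (log2 fold change -1.55, SE 0.06, adjusted p = 4.4e-11). Uhrf1, the partner of the maintenance methyltransferase, fell 4.69-fold, and Gadd45a rose 4.5-fold. Of 26 imprinted genes, 25 were tested, 3 rose and 16 fell, with a median of -0.55. H19, a growth-limiting noncoding RNA, was at 4.26 to 13 CPM (median 9) at P7 and at 0.174, 0.049, 0.176, 0.108 and 0.172 CPM at P35 (log2 fold change -5.93, SE 0.39, adjusted p = 5.8e-09). Igf2, a growth factor of the same locus, fell 3.26-fold, with 50.6 to 80.1 CPM at P7 and 15.7 to 23.1 CPM at P35, while Impact, a translational regulator, rose 5.27-fold, with 59.6 to 79.7 CPM at P7 and 317 to 379 CPM at P35.

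Clustered protocadherins, which give neurons their surface identity, mostly fell, as 3 of 56 tested members rose and 42 fell, with a median log2 fold change of -0.49. Pcdha2 fell 3.26-fold. Pcdhgc5 was the exception, at 17.4 to 32.8 CPM (median 25.4) at P7 and at 136, 152, 153, 154 and 142 CPM at P35 (log2 fold change 2.61, SE 0.14, adjusted p = 7.8e-10). The genes of a cluster share their last exons, and reads there were divided by estimation, so that single members are uncertain. Of RNA-binding and growth genes related to let-7, 7 of 9 were tested, 3 rose (42.9%) and 3 fell (42.9%), against 35.4% and 37% of all genes tested. Their median was -0.21 (-0.02 without P7 replicate 2). Igf2bp3 fell 14.8-fold, with 1.88 to 3.03 CPM at P7 and 0.117 to 0.217 CPM at P35, Igf2bp1 fell 8.49-fold from under 1 CPM, and Trim71 rose 4.36-fold to about 1 CPM.

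Patterning genes fell. Among transcription factors of projection neurons 7 of 32 tested members rose and 23 fell, with a median log2 fold change of -0.44. Bhlhe22, a basic helix-loop-helix factor, fell 2.64-fold, and the splicing factor Rbfox1, also on this list, rose 1.52-fold. Among axon guidance genes 9 of 43 tested members rose and 29 fell, with a median log2 fold change of -0.34. Robo1, a Slit receptor, was at 116 to 136 CPM (median 126) at P7 and at 47.9, 51.3, 54.1, 49.9 and 50.5 CPM at P35 (log2 fold change -1.31, SE 0.05, adjusted p = 5.3e-11). L1cam, an adhesion molecule of growing axons, fell 4.05-fold, and the netrin receptor Unc5b rose 3.09-fold. Of 27 neurotrophin and growth factor genes, 26 were tested, 13 rose (50%) and 10 fell (38.5%), against 35.4% and 37% of all genes tested. Their median was 0.13 (0.23 without P7 replicate 4 and -0.02 when scaled by total counts). Ntf3, which encodes neurotrophin-3, fell 8.27-fold, Igfbp6 rose 15.1-fold, and Ntrk2, the receptor of Bdnf, was at 572 to 640.3 CPM and 631 to 765 CPM with overlap (log2 fold change 0.22, adjusted p = 0.0064, or 0.08 and no longer past the test when scaled by total counts). Among neuronal splicing regulators 5 of 18 tested members rose and 10 fell, with a median log2 fold change of -0.43 (-0.21 without P7 replicate 4), Mbnl2 rising 4.11-fold and Elavl3 falling 1.95-fold. Of Cul3 and the proteins that work with it 3 of 13 tested members rose (23.1%) and 6 fell (46.2%), with a median log2 fold change of -0.01, none beyond 2-fold. Its adaptor Tnfaip1 fell, with 58.9 to 67 CPM at P7 and 39.8 to 45 CPM at P35, and Nfe2l2, a transcription factor whose turnover depends on Cul3, rose, with 5.66 to 8.23 CPM at P7 and 9.6 to 12 CPM at P35.

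Noncoding genes changed in both directions, beside 35.4% higher and 37% lower over all 18022 genes tested. Of 536 lincRNAs tested, 189 were higher and 169 lower at P35 (median 0.03), of 383 antisense genes 158 and 97 (median 0.21), and of 74 noncoding genes at bidirectional promoters 36 and 10 (median 0.31). Other classes fell more often than they rose, with 142 of 1156 unverified transcripts of the annotation (TEC) higher and 390 lower (median -0.33). The counts were 72 and 146 of 415 processed pseudogenes (median -0.23), 12 and 32 of 111 sense intronic genes (median -0.25) and 7 and 12 of 31 small nuclear RNAs (median -0.60). Falls among TEC, processed pseudogenes and sense intronic genes were no more frequent than over all genes tested. Among well-expressed noncoding genes the largest rises were those of Gm40518, with 0.079 to 0.227 CPM at P7 and 6 to 8.02 CPM at P35, 1700047M11Rik (23.3-fold), 2900052N01Rik (9.46-fold) and Gm39822 (9.07-fold). Beside H19, the largest falls were those of 1110015O18Rik, with 5.53 to 7.88 CPM at P7 and 0.2 to 0.325 CPM at P35, 1500035N22Rik (10.1-fold) and 2410018L13Rik (7.19-fold). 1500035N22Rik lies on the opposite strand of the gene Prkag2, and 2410018L13Rik overlaps annotated pseudogenes on its own strand, whose reads could be assigned to it. Of 53 small nucleolar RNAs 30 were higher and 8 lower, and since most lie in introns of host genes their counts in total RNA can include host transcripts.

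The change in cortex was compared with that in hippocampus and cerebellum of the same 11 mice, in 1 fit over the 3 regions with the mouse as a block. CPM values in this comparison were scaled over the 33 libraries and differ slightly from those above. Of 19657 genes tested, 3008 (15.3%) changed more positively in cortex than in hippocampus and 2076 (10.6%) more negatively, while 7106 (36.1%) and 6003 (30.5%) did so against cerebellum. The excess of positive differences varied. Against hippocampus it was 2215 to 2046 without P35 replicate 2, 2765 to 2533 without P7 replicate 4, 2704 to 2288 with DESeq2 and 2927 to 1939 without P7 replicate 3. Against cerebellum it was 6396 to 6131 without P35 replicate 2. Arpp19, a small inhibitor of protein phosphatase 2A, was at 108 to 132 CPM at P7 and 357 to 475 CPM at P35 in cortex, against 95.9 to 119 CPM at P7 and 89.6 to 110.2 CPM at P35 in hippocampus (difference of log2 fold changes 2.01, SE 0.07, adjusted p = 9.5e-15). Efhd2, a calcium-binding protein, was at 21.5 to 24.3 CPM at P7 and 162 to 193 CPM at P35 in cortex and at 23.3 to 27.7 CPM at P7 and 56.7 to 73.7 CPM at P35 in hippocampus (difference 1.69, SE 0.08, adjusted p = 2.9e-12). Il17ra, the receptor of interleukin 17, and Rasgef1c, a gene of the Ras exchange factor family, also changed more positively in cortex than in hippocampus, by 2.30 and 2.89. Doc2b, a calcium sensor of vesicle release, fell in cortex and was at 71.7 to 79.9 CPM at P7 and 72.1 to 88.6 CPM at P35 in hippocampus (difference -2.41, SE 0.15, adjusted p = 4.3e-11). Tanc1, a postsynaptic scaffold, was at 14.7 to 17.3 CPM at P7 and 24.9 to 32 CPM at P35 in cortex but was at 19.3 to 27 CPM at P7 and 156 to 190.0 CPM at P35 in hippocampus (difference -2.03, SE 0.12, adjusted p = 2.6e-11). Slc29a4 and the cation channel Trpc4 differed in the same direction, by -2.74 and -1.48.

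Against cerebellum the differences were larger. Granule cells of the cerebellum are still dividing at P7, and their part in these differences was not tested. Dtl, which targets replication factors for destruction, was at 5.08 to 7.38 CPM at P7 and 13.4 to 17.9 CPM at P35 in cortex and at 34.5 to 49.5 CPM at P7 and 0.131 to 0.359 CPM at P35 in cerebellum (difference 8.69, SE 0.17, adjusted p = 6.0e-21). Kcnq5, a potassium channel of the M current, was at 102 to 132 CPM at P7 and 137 to 164 CPM at P35 in cortex and at 45 to 52.7 CPM at P7 and 1.58 to 1.94 CPM at P35 in cerebellum (difference 5.21). Rcor2, a CoREST corepressor, and Sept9, a septin, differed in the same direction, by 6.11 and 3.14. Dock9, Snrk, Tiam1 and Tmem266 differed the other way, by -3.26, -2.72, -3.02 and -3.75. Snrk, a kinase related to AMP-activated kinase, was at 107 to 121 CPM at P7 and 110.2 to 125 CPM at P35 in cortex and at 87 to 97.4 CPM at P7 and 536 to 650.5 CPM at P35 in cerebellum, and Tiam1, an activator of Rac, was at 39.5 to 46.5 CPM at P7 and 328 to 504 CPM at P35 in cerebellum. Of all 19657 genes tested, 36.1% changed more positively and 30.5% more negatively in cortex than in cerebellum. Against hippocampus the shares were 15.3% and 10.6%, and the counts of lists are read beside these shares. Of the lists, 34 of 35 cell cycle genes, 53 of 56 clustered histones and 79 of 79 ribosomal protein genes changed more positively in cortex than in cerebellum, and 51 of 56 clustered protocadherins more negatively. Of 24 myelin genes, 22 changed more positively in cortex than in cerebellum and 1 more negatively. Against hippocampus 0 myelin genes changed more positively and 4 more negatively, with a median difference of only -0.19. Against hippocampus, 18 of 23 immediate early genes changed more positively in cortex and 0 more negatively (median difference 1.32), and 10 of 20 interneuron genes more positively and 2 more negatively.

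**Figure D4:**
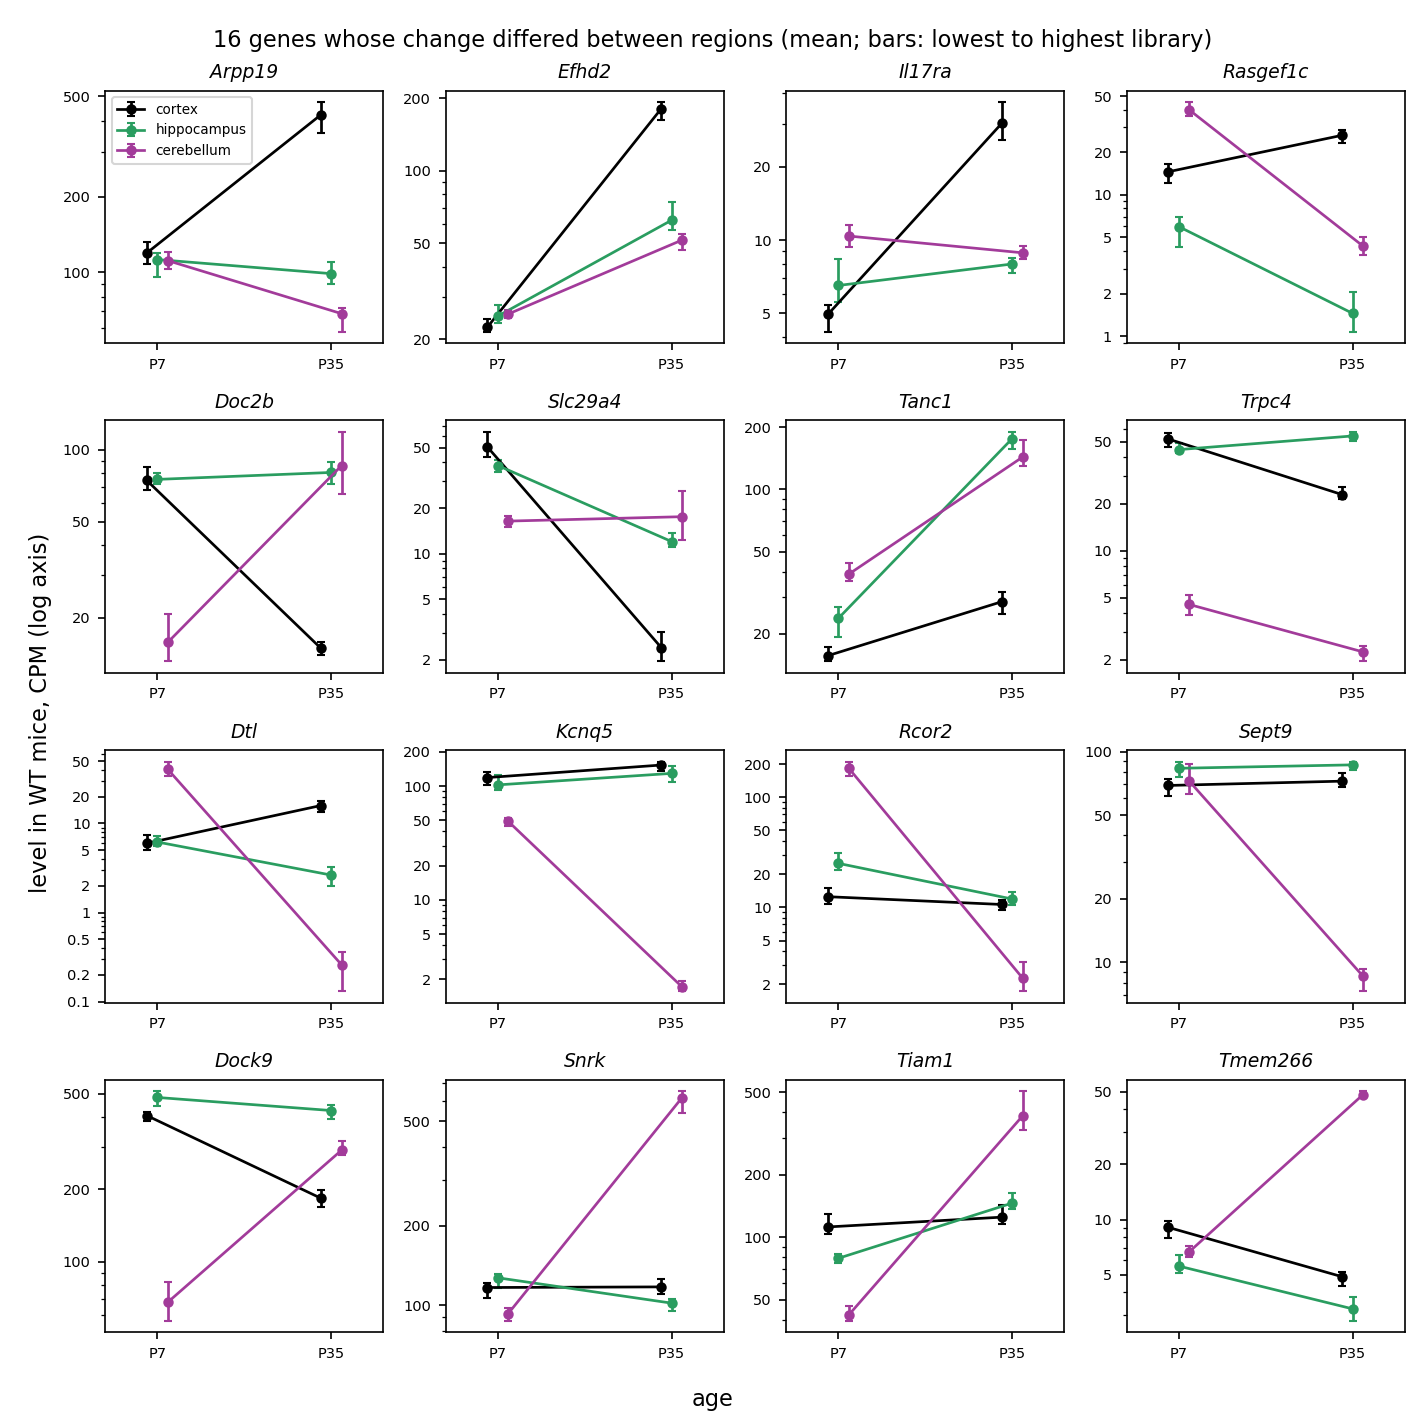
Level in CPM (vertical log axes) at P7 and P35 (horizontal axis) of 16 genes in WT cortex (black), hippocampus (green) and cerebellum (purple); points are means over 6 P7 or 5 P35 libraries and bars run from the lowest to the highest library. The upper 8 genes were chosen by the smallest p in each direction for a difference between cortex and hippocampus and the lower 8 for one between cortex and cerebellum; Arpp19 rises in cortex alone of the 3 regions, and Kcnq5, Rcor2 and Sept9 fall steeply in cerebellum.

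Cortex of Cul3+/- mice gave a second set of 11 mice, again without the P35 mouse whose sources disagree on genotype. In these mice, too, age and whatever else differed between the collections cannot be told apart. Of 17859 genes tested there, 6986 (39.1%) were higher and 7194 (40.3%) lower at P35. Of 12892 genes called in WT and tested in both, 12105 were called in the same direction in Cul3+/- cortex, as were 2663 of 2670 genes beyond 2-fold. Named genes had similar changes in both, Mobp with log2 fold changes of 8.88 in WT and 9.63 in Cul3+/- cortex, Pvalb with 7.63 and 7.73, Arc with 5.07 and 5.60, and Dpysl3 with -5.27 and -5.35. A test of the difference in change between genotypes called 0 of 18726 genes (0%) with edgeR's quasi-likelihood test, 685 genes having an unadjusted p under 0.05, and DESeq2 called 1.

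**Figure D5:**
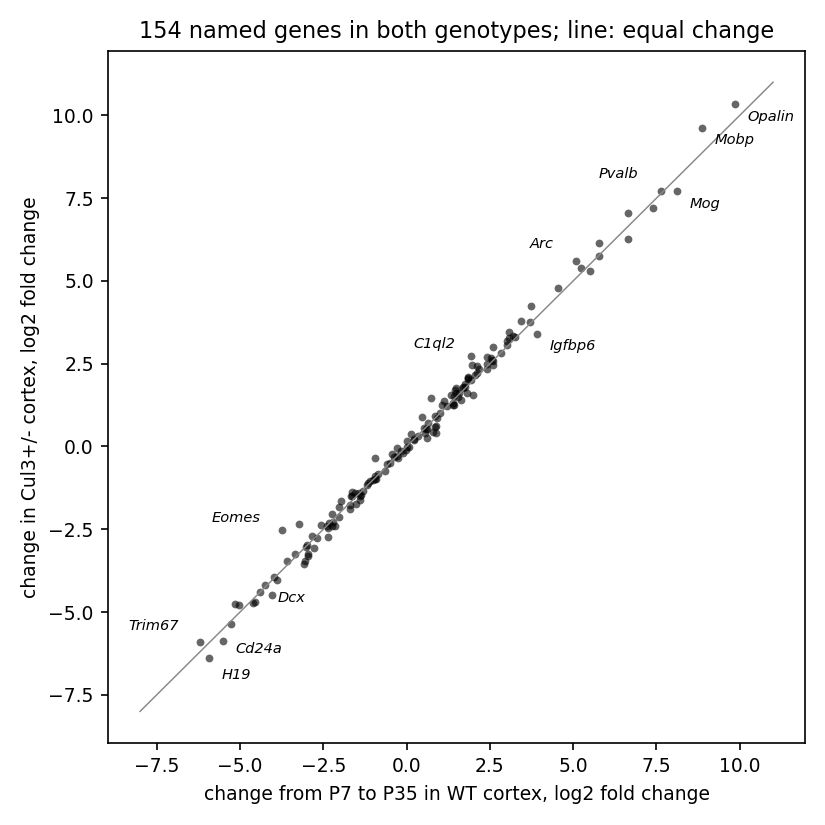
Log2 fold change from P7 to P35 in WT cortex (horizontal axis) against that in Cul3+/- cortex (vertical axis) for the 154 named genes with a value in both, 1 point per gene; the line marks equal change. Points lie near the line from H19 and Trim67, at -5.93 and -6.22 in WT, to Opalin and Mobp at the upper end, and Eomes, at -3.74 and -2.53, lies off it.

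The earlier step from E17.5 to P7 in WT cortex is set beside the later one for orientation; the 2 steps share the 6 P7 libraries, so that no overlap between them is given. In that step 14365 of 17641 genes (81.4%) differed. Some genes did most of their rising before P7. Aqp4 had a log2 fold change of 5.27 from E17.5 to P7 and -0.16 from P7 to P35, Acan 3.59 and -0.45, and Slc17a8 6.35 and -2.21. Others rose at both steps, Slc12a5 by 3.64 and 1.07, Grin2a by 3.66 and 1.86, and Camk2a by 4.83 and 1.96. Dnmt3a and Igf2 rose by 1.54 and 2.00 before falling. Tubb3, Dpysl3 and Hcn4, at 0.01, -0.05 and -0.06, did not pass the test from E17.5 to P7 and fell afterwards, and Igf2bp1 fell at both steps, by -6.09 and -3.09.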

How the data were processed

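The 11 WT cortex libraries were analysed with, for comparison, 22 WT hippocampus and cerebellum libraries of the same mice, 11 Cul3+/- cortex libraries and 6 WT cortex libraries of E17.5. Per the submitters' processing notes, reads were trimmed (cutadapt 1.14), aligned (STAR 2.5.3a) and assigned to genes (RSEM 1.3). The deposited values are expected counts per gene, 53465 genes in 1 table, estimated by the authors and not normalised; 5.76% of values were not whole, and all were rounded first. Genes were filtered with filterByExpr (minimum count 10), scaled with TMM factors and tested with edgeR 4.0.16 in R 4.3.3 (quasi-likelihood test, and glmTreat against 2-fold), with Benjamini-Hochberg adjustment over all genes tested. CPM were computed with TMM factors, and log2 values with a prior count of 2. Each of the 11 WT cortex libraries came from a separate mouse, and p-values measure the spread between these mice; libraries of other regions share those mice, and the mouse was a block in the fit over regions.

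Named genes were Cul3, the 10 protein-coding genes with the largest change in each direction (mean of 20 CPM or more, no overlap), the 4 such noncoding genes (5 CPM), the 4 genes with the smallest p in each direction of each region comparison, the extremes of each list and fixed members of it. Members and lists were chosen with earlier results of these data known. Ratios between genes, the 5 promoters shown and scaling by total counts were added after the values were seen. The statistics were run on simulated data, where changes of 0.5 on the log2 scale were recovered in 63.3% of cases for WT age and 14.6% for cortex against hippocampus. The simulation changed few genes, gave every gene the same spread and held no mouse effect. It could therefore not check the scaling or the mouse block on data in which most genes differ. DESeq2 1.42.0 and other settings were run as alternatives. Results for some named genes are not reported here.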

Additional observations from a re-analysis of the deposited data

Results flagged for a closer look

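Dixon's 95% criterion was applied to 312 groups of libraries of the named genes. If the groups were independent, 1 in 20, about 16, would be flagged by chance. They share the same 11 libraries, so that a count above this is not a tested excess. In 42 groups 1 library stood further from the rest than the criterion allows. In P7 replicate 4 these were 1500035N22Rik at 3.767 CPM (nearest 5.505), Camk2a at 390.3 CPM (nearest 190.9), Col4a4 at 3.715 CPM (nearest 1.738), Dnmt3a at 432.8 CPM (nearest 371.2), Grin2b at 1527 CPM (nearest 1055), Grin2d at 29.38 CPM (nearest 17.61), L1cam at 530.7 CPM (nearest 420.4), Pcdha2 at 25.43 CPM (nearest 17.09), Rplp0 at 295.8 CPM (nearest 397.6), Rps21 at 56.38 CPM (nearest 79.11), St8sia2 at 125 CPM (nearest 50.31), Tmem88b at 1.663 CPM (nearest 1.096), Trim67 at 273.5 CPM (nearest 138.4), Tubb2b at 1717 CPM (nearest 2461) and Tubb4a at 276 CPM (nearest 136.4). In P35 replicate 3 these were Aplnr at 1.873 CPM (nearest 1.116), Ciart at 16.68 CPM (nearest 8.879), Fos at 123.4 CPM (nearest 76.83), Gabrq at 0.556 CPM (nearest 0.8723), Grin2d at 6.175 CPM (nearest 4.548), L1cam at 117.5 CPM (nearest 103.5) and Tubb4a at 254.3 CPM (nearest 204.3). In P7 replicate 2 these were Col25a1 at 34.4 CPM (nearest 17.64), Gabrq at 6.202 CPM (nearest 3.776), Hapln4 at 1.048 CPM (nearest 0.5456), Hist1h2an at 3.391 CPM (nearest 1.313), Ngfr at 7.195 CPM (nearest 3.239) and Pvalb at 0.4686 CPM (nearest 0.1819). In P35 replicate 4 these were Bdnf at 71.31 CPM (nearest 41.14), Kcnab3 at 44.88 CPM (nearest 36.84), Mal at 310.1 CPM (nearest 380.2) and Rps21 at 100.9 CPM (nearest 118.3). In P7 replicate 1 these were Aplnr at 23.77 CPM (nearest 20.13), Eomes at 15.45 CPM (nearest 1.06) and Mal at 2.975 CPM (nearest 2.241). In P35 replicate 2 these were Camk2n1 at 1446 CPM (nearest 1323) and Gm39822 at 8.145 CPM (nearest 6.246). In P7 replicate 5 these were Ccne2 at 5.832 CPM (nearest 4.482) and Grin2c at 1.742 CPM (nearest 3.749). In P35 replicate 6 this was mt-Nd3 at 472.5 CPM (nearest 339.1). In P7 replicate 3 this was Kcnab3 at 5.968 CPM (nearest 5.213). In P7 replicate 6 this was Ciart at 5.797 CPM (nearest 3.611). Library measures stood apart in the same way. P7 replicate 4 had a mitochondrial share of 2.669% (nearest 1.901%), a share of the 20 highest genes of 11.32% (nearest 13.6%) and a summed ribosomal protein level of 10100.0 CPM (nearest 13580.0). P35 replicate 4 had the lowest sums of myelin genes, 4679 CPM, and of ribosomal protein genes, 9606 CPM. P7 replicate 5 had a choroid plexus sum of 39.11 CPM and P7 replicate 2 a striatal sum of 176.4 CPM. The genes named by region comparison were chosen for passing the test of the difference with the smallest p. Each therefore had to be listed here, and the list adds no evidence. Between cortex and hippocampus the changes differed, on the log2 scale, for Arpp19 by 2.01, Doc2b by -2.41, Efhd2 by 1.69, Il17ra by 2.30, Rasgef1c by 2.89, Slc29a4 by -2.74, Tanc1 by -2.03 and Trpc4 by -1.48. Between cortex and cerebellum the changes differed, for genes chosen in the same way, for Dock9 by -3.26, Dtl by 8.69, Kcnq5 by 5.21, Rcor2 by 6.11, Sept9 by 3.14, Snrk by -2.72, Tiam1 by -3.02 and Tmem266 by -3.75.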

How the results depend on the processing

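The count of 13039 changed genes was 12885 with DESeq2, 14991 without a filter on low counts, 13062 with upper-quartile scaling, 12958 with the level of Xist as a covariate, 13221 with the mice of disputed genotype put back, 12615 with the replicate number as a block and 12570 to 13415 when 1 replicate was left out. Beyond 2-fold, 2725 genes became 2145 with DESeq2, 2647 with the block and 2603 to 2763 without 1 replicate. With the block, 13876 genes were called in Cul3+/- cortex and 13870 from E17.5 to P7. Same-numbered libraries deviated together with r = -0.0703 to 0.249, above 0.1 in 1 of 5 pairs, so that the numbers were not taken to pair the mice. Of the 13039 genes, 11677 to 12892 kept their call under each alternative and 0 were called in the other direction.

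Leaving out 1 replicate gave 4261 to 5298 genes that differed between cortex and hippocampus, 12527 to 13024 between cortex and cerebellum, 13829 to 14274 in Cul3+/- cortex, 14163 to 14565 from E17.5 to P7 and 0 between genotypes, where DESeq2 called 1. Values close to 0 changed sign, and the cause was not tested. The difference in mean log2 CPM of Cul3, -0.0149, ran from -0.0368 to 0.0315 without 1 replicate, being 0.00215 without P7 replicate 5 and 0.00818 without P35 replicate 6. Its fitted log2 fold change ran from -0.0343 to 0.0318, with 0.00161 when the mice were put back. That of Dlg4 ran from -0.0429 to 0.0569, with -0.0163 under upper-quartile scaling, -0.141 under total counts and -0.0184 with the mice put back. Under total counts Cul3 (-0.157) passed the test. The median of DNA methylation genes ran from -0.175 to 0.0349, and that of neurotrophin genes was -0.0198 under total counts. The lists were described by counts and medians without a test of the list, and genes at a few CPM are limited by depth.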
